A study of Homo sapiens with 9 samples.

Results

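The genes described here are those whose symbol starts with PSMA to PSMG and goes on with a number, the family name of the proteasome. This rule gave 56 of the 25797 genes in the deposited SLAM-Seq table. Of these, 48 encode proteasome subunits, activators, an inhibitor or assembly chaperones. The other 8 match by name only and have no such role (PSMA3-AS1, PSMB8-AS1, PSMC3IP, PSMD14-DT, PSMD6-AS2, PSMD7-DT, PSME3IP1 and PSMG3-AS1). The rule used names alone.

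The study asked which transcripts change when JUN, a subunit of the AP-1 transcription factor, is removed acutely from MCF10A cells, a non-transformed line of human mammary epithelium. All cells, controls included, were JUN knockout cells into which JUN-AID and TIR1 had been brought by infection, so that auxin leads to the degradation of the JUN fusion. IAA acts on the protein, so the level of JUN mRNA is no check of the labels. According to the study's methods the knockout was isolated as single-cell clones. Cells received 100 µM of the auxin IAA, or DMSO as control, for 1 h, followed by 100 µM 4-thiouridine (4sU) for 1 h. A group labelled as a control without 4sU received no pulse, and its label does not say whether DMSO was given. Each group had 3 samples. The study describes its replicates as biological, but the labels of these samples do not say that they were separate cultures, so p-values measure the spread between these samples.

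The proteasome is the barrel-shaped protease that degrades proteins marked with ubiquitin. Its core particle stacks alpha rings, which gate the entrance, on beta rings, which carry the proteolytic sites, and its regulatory particle recognises and unfolds substrates with a ring of ATPases and a lid. The subunits are made as a set, and the transcription factor NFE2L1 is known to raise their transcription when proteolytic capacity falls short. Auxin-induced degradation itself runs through the proteasome, because TIR1 directs a ubiquitin ligase to the AID tag.

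SLAM-Seq reads newly made RNA from T-to-C conversions, which appear where 4sU was incorporated and then alkylated. The table listed intervals at the 3′ ends of RefSeq transcripts. For each it held the T>C rate, the share of T positions read as C, given here in percent, and the reads scaled to the size of the library (CPM), given here as total mRNA. The 7 distinct libraries held 18997637 to 24014195 reads. The 3 IAA columns were identical in all 56868 rows and were used as 1 library, so comparisons with IAA have no replicate check and no p-value. Mammary epithelial markers were above 1 CPM in every library (10 of 10, summed 2024 to 3651 CPM). Fibroblast markers summed to 8.63 to 14.3 CPM. Of these, COL1A1 had 3.21 to 9.82 CPM and DCN 3.66 to 7.29 CPM, and COL1A2, COL3A1 and PDGFRA were at or near 0. Endothelial markers summed to at most 1.08 CPM and leukocyte markers to at most 7.93 CPM. Nearly all of the leukocyte sum was CD68, with 1.68 to 7.93 CPM.

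The start regions of the genes are shown first, because JUN acts through AP-1 sites and NFE2L1 through antioxidant response elements (AREs), and because the JUN result described last can be read beside them. RefSeq windows of 300 bases in build GRCh38.p14, from 250 bases before to 50 after the start, were found for 49 of the 56 genes. The AP-1 letters TGANTCA, searched on both strands, were present in 2 of the 49 (4.08%), against 7.76% of all 27305 windows of that length. The ARE core TGACNNNGC was present in 14 of the 49 (28.6%), against 13.6% of all windows, and CCAAT in 22 (44.9%), against 35.7%. The AP-1 and ARE letters can overlap where N allows it, and no window of these genes held such an overlap. The matches are letters in a window and were not tested for binding. The windows leave out distant enhancers, at which the study proposes a specific function of JUN. The only AP-1 letters in the window of a gene with a proteasome role lay in PSMD9, and windows from 5 genes that the results turn on, PSMD9 among them, are shown here with the match in capitals. Each stretch reads 5′ to 3′ in the direction of the gene.
PSMD9, AP-1 letters, chr12:121888554-121888578, plus strand: atgagaaaaTGAGTCAgctggggcg
PSMD9, ARE core, chr12:121888680-121888704, plus strand: gcttccggTGACCCAGCtccgccct
PSMD3, ARE core, chr17:39980762-39980786, plus strand: ccctttgtTGACTCGGCcatcggcc
PSMD12, ARE core, chr17:67366726-67366750, minus strand: acaaaaccTGACGCTGCaggctgga
PSMG2, ARE core, chr18:12658691-12658715, plus strand: gtttcccgTGACCCCGCggccgctc
PSMC3, CCAAT, chr11:47426539-47426563, minus strand: cgcgtgtcggCCAATagcggcccca

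Among the catalytic subunits, the constitutive set was far more abundant than the immunoproteasome set in every library. PSMB5, the chymotrypsin-like subunit, had 179, 165 and 155 CPM without 4sU, 165, 193 and 181 CPM with DMSO and 4sU, and 162 CPM with IAA. Its immunoproteasome counterpart PSMB8 had 20.4, 17.2 and 14.1 CPM, 15.7, 19.3 and 17.3 CPM and 19.3 CPM in the same order. The ratio of PSMB5 to PSMB8 was 8.42 to 11 over the 7 libraries as CPM, and 4.08 to 5.33 as CPM per kb of interval.

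PSMB6, the caspase-like subunit, had 78.2, 92.9 and 83.0 CPM without 4sU, 157, 109.9 and 116 CPM with DMSO and 4sU, and 167 CPM with IAA. PSMB9, which takes its place in the immunoproteasome, had 3.66, 5.36 and 3.58 CPM, 7.38, 5.79 and 5.48 CPM and 6.58 CPM. Their ratio was 17.3 to 25.4 as CPM and 30.7 to 44.9 as CPM per kb, so this pair stood furthest apart per length. PSMB7, the trypsin-like subunit, had 192, 133 and 92.4 CPM, 152, 188 and 137 CPM and 178 CPM, and its counterpart PSMB10 had 15.9, 10.7 and 9.32 CPM, 23.1, 16.0 and 13.4 CPM and 24.8 CPM. Here the ratio was 6.59 to 12.5 as CPM and 2.86 to 5.41 as CPM per kb. No constitutive subunit overlapped its counterpart in level. PSMB11, the catalytic subunit of the thymus, and PSMA8, the alpha subunit of the testis, were listed at 0 in all libraries.

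The table gave PSMB8 and PSMB9 several rows each for numbered copies of their transcript, and the reads of PSMB9 stood in 1 of 8 rows while the other 7 were at 0. Both genes lie in the MHC region of chromosome 6, and whether reads were lost between copies was not tested. The plot of CPM for the catalytic subunits shows the 3 pairs side by side.

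**Figure D1:**
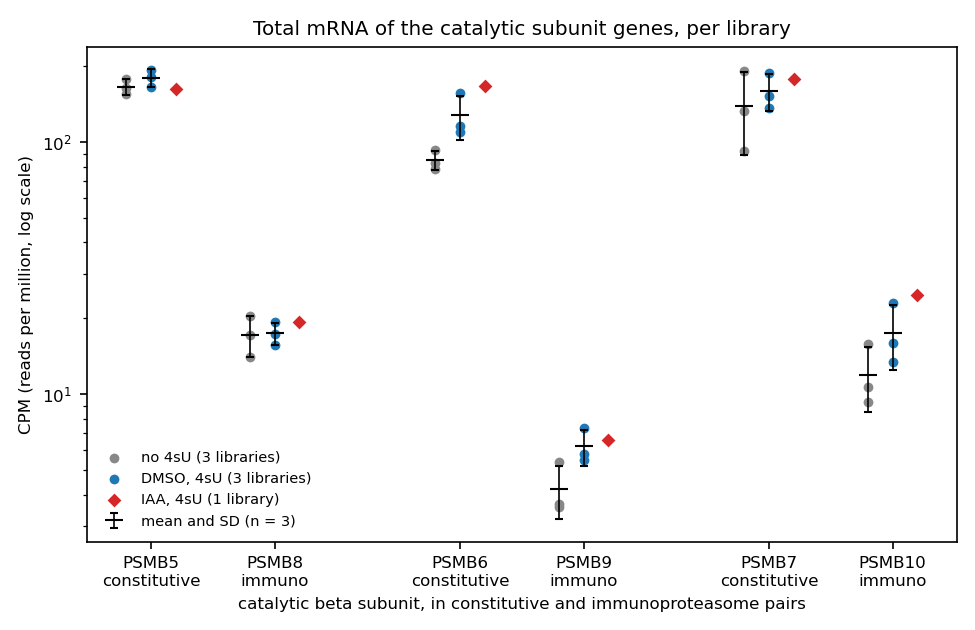
CPM (log axis) of the 6 catalytic subunit genes in each of the 7 libraries, with grey points for no 4sU, blue points for DMSO with 4sU, red diamonds for the IAA library, and black bars for the mean and SD of 3 libraries. Each constitutive gene sits above its immunoproteasome counterpart in every library, by a factor of 6.59 or more.

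With all 6 libraries, the pulse of 4sU raised the T>C rate of most proteasome genes, with a smaller median change than over all genes. Of the 56 genes, 46 passed the filter for this test (at least 200 reads on average, with non-zero rates in 3 or more of the 6 libraries). In 31 of these 46 (67.4%) the rate was higher with DMSO and 4sU than without 4sU at an adjusted p under 0.05 (limma on log2 of the rate plus 0.0005, Benjamini-Hochberg), against 66.3% of all 6805 genes tested, so the share was near the background. Without no 4sU replicate 1, 20 of 46 (43.5%) were higher, against 53.2% of 6794 genes. Without no 4sU replicate 2, 22 (47.8%) were higher, against 53.1% of 6796 genes. Without no 4sU replicate 3, 21 (45.7%) were higher, against 55.2% of 6795 genes. In the fit of all 6 libraries none was lower, and the log2 change was above 0 in all 46. The libraries of the groups did not overlap, with 4sU higher, in 37 of 46 (80.4%), against 72.9% of all genes. The median log2 change was 0.87 for the proteasome genes and 1.13 for all genes.

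To compare genes, the mean rate without 4sU was subtracted from the mean rate with DMSO and 4sU, which gave a net rate. The rate counts conversions per T position read, so it is already relative to the reads of a gene. The median net rate was 0.0981% over the 46 genes and 0.139% over all genes. Of the 46, 31 lay below the median of all genes and 3 lay in their highest quartile, above 0.259%. Cytosolic ribosomal protein genes had a median net rate of 0.0857%, mitochondrial ribosomal protein genes 0.130% and nuclear genes of the respiratory chain 0.0666%. Across the 46 genes the net rate was lower where CPM was higher (Spearman rho -0.41, n = 46), as across all genes (rho -0.28, n = 6805). These points share the same libraries, and the correlation describes genes, not replicates.

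**Figure D2:**
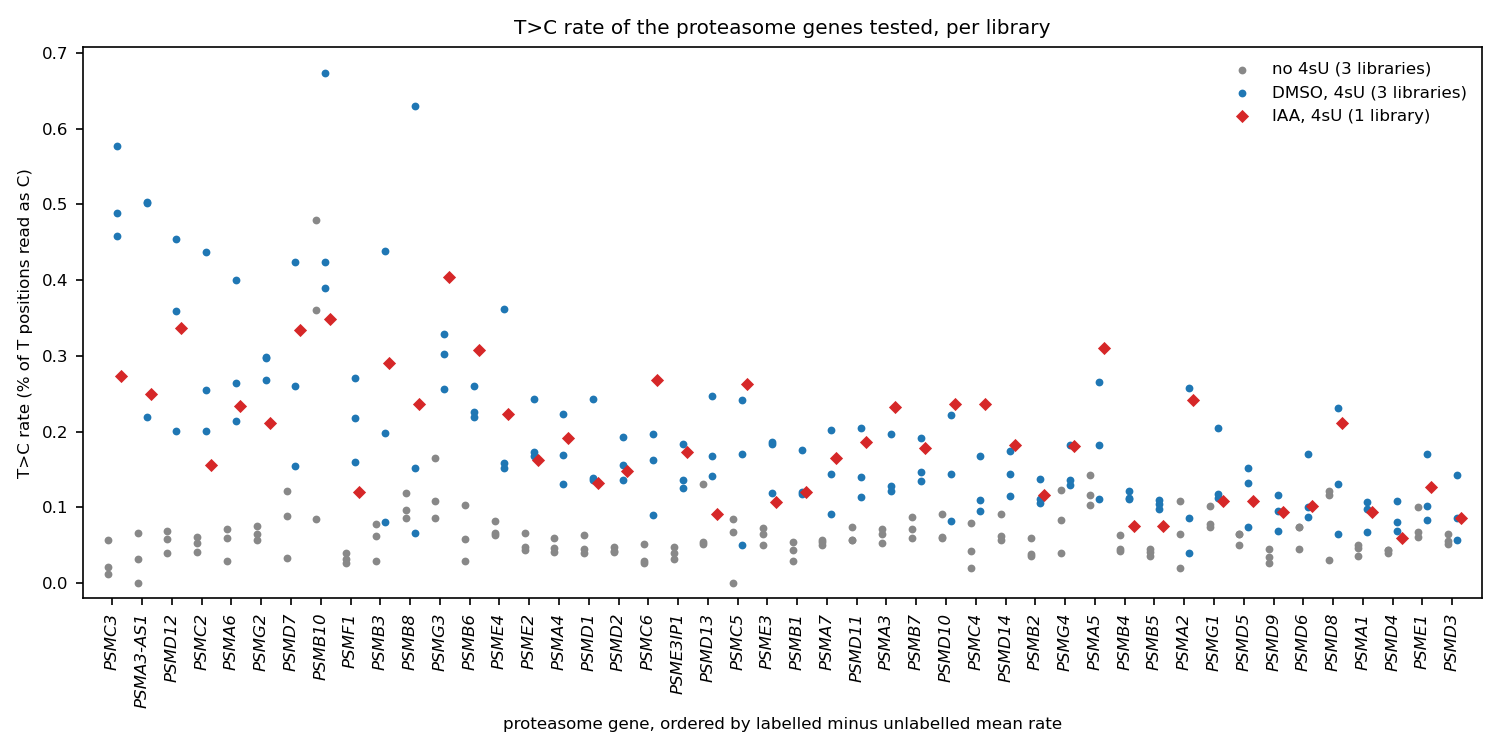
T>C rate in percent for the 46 proteasome genes tested, ordered by net rate, with grey points for the 3 libraries without 4sU, blue points for the 3 with DMSO and 4sU, and red diamonds for the IAA library. PSMC3 at the left reaches 0.458 to 0.577% with DMSO and 4sU, whereas most genes on the right stay under 0.2%.

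PSMC3, an ATPase of the 19S base, had the highest net rate of the 46 genes, but not the highest rate in every labelled library. PSMB8 was above it in DMSO replicate 2 and PSMB10 in DMSO replicate 3. With IAA, PSMG3 (0.404%) and PSMD12 (0.337%) were among the genes above it. The T>C rate of PSMC3 was 0.012, 0.0208 and 0.0565% without 4sU, 0.577, 0.489 and 0.458% with DMSO and 4sU, and 0.273% with IAA. Groups with and without 4sU were separated widely, with a log2 change of 2.84 ± 0.29 (SE, n = 3 libraries per group) and an adjusted p of 0.000295 in limma. Its net rate of 0.478% lay at the 89.7th percentile of all genes tested. The interval of PSMC3 is the 69 bases of its 3′ UTR at chr11:47440320-47440388 on the minus strand in GRCh37, and it holds 12 T positions. The rate was thus read from few positions, with 613 to 1268 reads per library, and rates per position were not analysed here. For 45 of the genes tested, the GENCODE 3′ UTR segment nearest in length to the interval was taken. Another gene lay over it on the same strand in 5 of the 45. On the opposite strand this was so in 5, PSMC2 (SLC26A5) and PSME1 (EMC9) among them. No gene lay over PSMC3. Only 14 of the 45 segments had the length of the deposited interval, so the counts may not hold for the intervals read.

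The other ATPases of the base, which unfold substrates, ranged widely. PSMC2 had 0.0417, 0.0611 and 0.0526% without 4sU, 0.437, 0.255 and 0.201% with DMSO and 4sU and 0.156% with IAA, and its log2 change was 1.72 ± 0.31 (limma, adjusted p 0.00266). PSMC4 and PSMC6 rose with log2 changes of 0.86 and 1.20, and PSMC4 lost the call with the replicate number as a block (limma, adjusted p 0.0632). PSMC5 had 0.067, 0 and 0.0841% and 0.17, 0.241 and 0.0498%, which overlapped, and did not pass (limma, adjusted p 0.103). PSMC1, the remaining ATPase, had 2 to 5 reads per library. Its deposited interval is 218 bases long, whereas the longest 3′ UTR segment that GENCODE gives the gene in GRCh37, on chromosome 14, has 3025 bases. Whether its reads fall outside the interval was not tested.

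In the 19S lid, which holds the deubiquitinating subunit PSMD14, 5 of 8 genes rose, with net rates of all 8 from 0.0382% to 0.283%. With the replicate block PSMD13 and PSMD14 lost the call (limma, adjusted p 0.0652 and 0.053). The top of this range was PSMD12, with 0.0579, 0.069 and 0.0396% without 4sU, 0.454, 0.201 and 0.359% with DMSO and 4sU and 0.337% with IAA (log2 change 1.83 ± 0.32, limma, adjusted p 0.0026). The bottom was PSMD3, with 0.055, 0.0647 and 0.0513%, 0.143, 0.0574 and 0.0853% and 0.0866%, whose groups overlapped and which did not pass (limma, adjusted p 0.21). PSMD8, of the lid as well, had 0.117, 0.0308 and 0.122%, 0.231, 0.13 and 0.0651% and 0.211%, also with overlap. The DMSO values of PSMD12 and PSMD3 did not overlap, and the pair was picked as the highest and lowest of the lid.

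Of the 3 base subunits without ATPase activity, PSMD1 and PSMD2, scaffolds of the regulatory particle, rose with log2 changes of 1.14 and 1.17. PSMD4, a ubiquitin receptor, had 0.0436, 0.0438 and 0.0395% without 4sU, 0.0684, 0.109 and 0.0812% with DMSO and 4sU and 0.0601% with IAA. Its groups did not overlap, but its change of 0.55 ± 0.24 did not pass (limma, adjusted p 0.071). It passed when only genes with at least 1000 reads on average were tested, where 28 of 33 proteasome genes (84.8%) rose, against 87.3% of all 2229 genes.

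In the 20S core, 4 of 7 alpha genes rose. PSMA6 had the highest net rate of this ring, with 0.072, 0.0591 and 0.0297% without 4sU, 0.214, 0.4 and 0.265% with DMSO and 4sU and 0.233% with IAA (log2 change 1.71 ± 0.31, limma, adjusted p 0.00263). PSMA1 had the lowest, with 0.0467, 0.0362 and 0.0501%, 0.0984, 0.068 and 0.107% and 0.0934%, and its change of 0.57 ± 0.24 did not pass (limma, adjusted p 0.0624), although its groups did not overlap and it had 4949 to 7823 reads per library. All 4 structural beta genes (PSMB1 to PSMB4) and all 3 constitutive catalytic genes rose. PSMB3 lost the call with the replicate block (limma, adjusted p 0.0606) and kept it in 1 of the 6 fits that each left out 1 library.

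Among the catalytic genes, PSMB6 had 0.0586, 0.103 and 0.0298% without 4sU, 0.26, 0.226 and 0.219% with DMSO and 4sU and 0.307% with IAA (log2 change 1.37 ± 0.30, limma, adjusted p 0.00564). PSMB5 had 0.045, 0.0415 and 0.0356%, 0.0984, 0.105 and 0.11% and 0.0749% (log2 change 0.77 ± 0.22, limma, adjusted p 0.0153). PSMB7 had 0.0601, 0.072 and 0.0867%, 0.135, 0.192 and 0.146% and 0.179% (log2 change 0.75 ± 0.24, limma, adjusted p 0.0242). The DMSO values of PSMB6 lay above those of PSMB5 and PSMB7 in every library.

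None of the immunoproteasome genes passed. PSMB8 had 0.0968, 0.119 and 0.0866% without 4sU, 0.0667, 0.63 and 0.153% with DMSO and 4sU and 0.237% with IAA, with 1 labelled library far above the others. PSMB10 had 0.0847, 0.479 and 0.36%, 0.425, 0.39 and 0.674% and 0.348%, so its rate was high without 4sU as well, in an interval of 59 bases. The adjusted p was 0.269 for PSMB8 and 0.19 for PSMB10 in limma. PSMB9 was listed at a rate of 0 in all libraries except the one with IAA, where it was 0.674%. With 68 to 157 reads it did not pass the filter and was not tested.

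Of the regulators, 4 of 5 rose. PSME2, a subunit of the interferon-induced activator PA28, and PSMF1, the proteasome inhibitor PI31, had log2 changes of 1.25 and 1.66. PSME1, the partner of PSME2 in that activator, had 0.0607, 0.0681 and 0.101% without 4sU, 0.0838, 0.102 and 0.17% with DMSO and 4sU and 0.127% with IAA, and did not pass (limma, adjusted p 0.214). Of the chaperones that assemble the core, PSMG2 and PSMG3 rose and PSMG1 and PSMG4 did not pass. Of those that assemble the regulatory particle, PSMD9 rose, and PSMD5 and PSMD10 did not pass. PSMD9 lost the call with the replicate block (limma, adjusted p 0.0648) and kept it in 1 of the 6 fits without 1 library.

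Of the 8 genes that match by name only, PSMA3-AS1, a long noncoding RNA antisense to PSMA3, had 0, 0.0325 and 0.0668% without 4sU, 0.502, 0.503 and 0.219% with DMSO and 4sU and 0.25% with IAA (log2 change 2.47 ± 0.42, limma, adjusted p 0.00223). The counting by strand is not given in the sources used here, so reads of PSMA3 and PSMA3-AS1 may not be separated where the genes overlap. The 10 genes left out of the rate test were PSMA8, PSMB11 and PSMD7-DT with 0 reads, PSMC1 with 2 to 5, PSMD14-DT with 0 to 6, PSMG3-AS1 with 1 to 17, PSMD6-AS2 with 6 to 29, PSMB8-AS1 with 14 to 50, PSMB9 with 68 to 157 and PSMC3IP with 129 to 329 reads per library.

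In total mRNA no proteasome gene passed the test between DMSO with 4sU and no 4sU. Of the 49 genes with at least 1 CPM on average, 0 were higher and 0 lower at an adjusted p under 0.05 in limma, edgeR and DESeq2 alike, against 0% of all 11032 genes higher and 1.59% lower in limma. At an unadjusted p under 0.05, 5 of the 49 (10.2%) were higher and 1 (2.04%) lower, against 2.58% and 7.42% of all genes. CPM of the groups did not overlap in 12 of 49 (24.5%) with 4sU higher and in 1 (2.04%) with 4sU lower, against 10.5% and 8.86% of all genes. The median log2 change was 0.16 for the proteasome genes and 0.035 for all genes, and 39 of 49 were above 0. In bulk samples fewer cells of a type and less RNA per cell cannot be told apart.

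The 5 genes that were higher at an unadjusted p, named after their values were seen, were PSMD4, PSMD9, PSMB6, PSMD3 and PSMC5. PSMD4 had 115, 139 and 113 CPM without 4sU, 227, 167 and 164 CPM with DMSO and 4sU and 257 CPM with IAA (log2 change 0.55 ± 0.18, limma, adjusted p 0.28). PSMD9, a chaperone of the base, had 50.4, 72.4 and 59.2 CPM, 109.5, 88.4 and 82.2 CPM and 126 CPM (log2 change 0.58 ± 0.19, limma, adjusted p 0.295). PSMD3 had 53.1, 65.7 and 63.7 CPM, 122, 75.1 and 86.2 CPM and 139 CPM (log2 change 0.56 ± 0.21, limma, adjusted p 0.38). The log2 changes were 0.53 ± 0.18 for PSMB6 and 0.53 ± 0.21 for PSMC5.

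In each of the 5 the highest of the 3 DMSO libraries was replicate 1. Without it the log2 changes were 0.38 for PSMD4, 0.44 for PSMD9, 0.36 for PSMB6, 0.35 for PSMD3 and 0.31 for PSMC5, and none kept an unadjusted p under 0.05. PSMC4 had the largest change of all 49 genes, 0.78 ± 0.36, with 21.7, 48.3 and 49.2 CPM without 4sU and 90.3, 45.3 and 72.1 CPM with DMSO and 4sU, and its groups overlapped. PSMA3-AS1 was the gene that was lower, with 16.4, 16.0 and 17.7 CPM and 11.1, 13.2 and 13.3 CPM (log2 change -0.43 ± 0.16, limma, adjusted p 0.397), and by net rate it was the second of the 46 genes. The change in total mRNA was lower where the interval was longer (Spearman rho -0.33 over 49 genes, and -0.21 over all 11032 genes), and the part of length in these values was not tested.

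With a pseudocount of 0.0005 and all 3 DMSO libraries, no proteasome gene tested differed by 1 log2 unit or more between the 1 IAA library and DMSO, in newly made or in total mRNA. In the rate 3 genes passed 1 log2 unit at a smaller pseudocount and 2 without DMSO replicate 1, as given further on. For each library the log2 rates were centred on their median, and the IAA library was set against the 3 libraries with DMSO and 4sU. No background was subtracted from these rates. Loss of all newly made RNA would thus lower a rate only by about its change with 4sU, which had a median of 0.87 log2 units. For a gene at that median a fall could not reach 1 log2 unit, so the lack of such falls says little. No gene of 46 was both 1 log2 unit from the DMSO mean and outside the DMSO range, against 9.03% of the 6820 genes compared. These groups differ in depth, with median reads of 1555 for the 46 genes and 633 for all 6805 genes tested with 4sU. At 1000 reads or more on average, 0 of 34 proteasome genes were called, against 22 of 2341 genes. The IAA rate lay above all 3 DMSO libraries in 9 of 46 genes (19.6%) and below them in 15 (32.6%), against 23.7% and 25.9% of all genes. The median difference was -0.08 log2 units for the proteasome genes and -0.01 for all genes.

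In total mRNA no gene of 49 was called, against 0.146% of 10947 genes. The IAA library lay above the DMSO range in 9 of 49 (18.4%) and below it in 9 (18.4%), against 20.8% and 20.5% of all genes, with a median difference of 0.01. In 32 of the 49 genes (65.3%) the IAA library was nearest to DMSO replicate 1, as in 52.4% of all genes. Without that replicate the numbers above and below were 21 and 19. A range over fewer libraries cannot be wider for any gene, and the share of all genes outside it was not counted.

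The largest differences in rate, named after their values were seen, were again at PSMC3 and PSMC2 and at the lid subunit PSMD13. PSMC3 had 0.577, 0.489 and 0.458% with DMSO and 0.273% with IAA, a centred difference of -0.90, while its CPM were 58.9, 44.1 and 39.3 with DMSO and 60.1 with IAA. PSMD13 had 0.247, 0.167 and 0.141% with DMSO and 0.0908% with IAA, a difference of -0.83, and PSMC2 a difference of -0.82. PSMA2, of the alpha ring, differed most in the other direction, by 0.79, with 0.258, 0.0854 and 0.04% and 0.242%. PSMF1, the inhibitor, had 0.16, 0.218 and 0.271% and 0.12%. Each of these IAA values is 1 library, so whether the differences exceed the spread between IAA samples was not tested.

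The calls depended on the treatment of low values. With a pseudocount of 0.0001 in place of 0.0005, PSMC3, PSMD13 and PSMA2 passed 1 log2 unit, with differences of -1.01, -1.06 and 1.07. Without DMSO replicate 1, PSMA2 (1.18) and PSMF1 (-1.01) passed it. PSMD9, the proteasome gene with AP-1 letters in its window, had a rate of 0.0682, 0.0954 and 0.116% with DMSO and 0.0937% with IAA, within the DMSO range. Its CPM of 126 with IAA was above the DMSO range, and 0.36 log2 units above the DMSO mean. PSMD9 was 1 of 9 genes above that range in total mRNA. PSMD3 and PSMB10, whose windows held no AP-1 letters, were above theirs as well, 0.50 and 0.44 log2 units above the DMSO means. In PSMD9, PSMD3 and PSMB10 the highest DMSO library was replicate 1, with 109.5, 122 and 23.1 CPM. The IAA library lay closer to it, with 126, 139 and 24.8 CPM, than to the DMSO means.

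**Figure D3:**
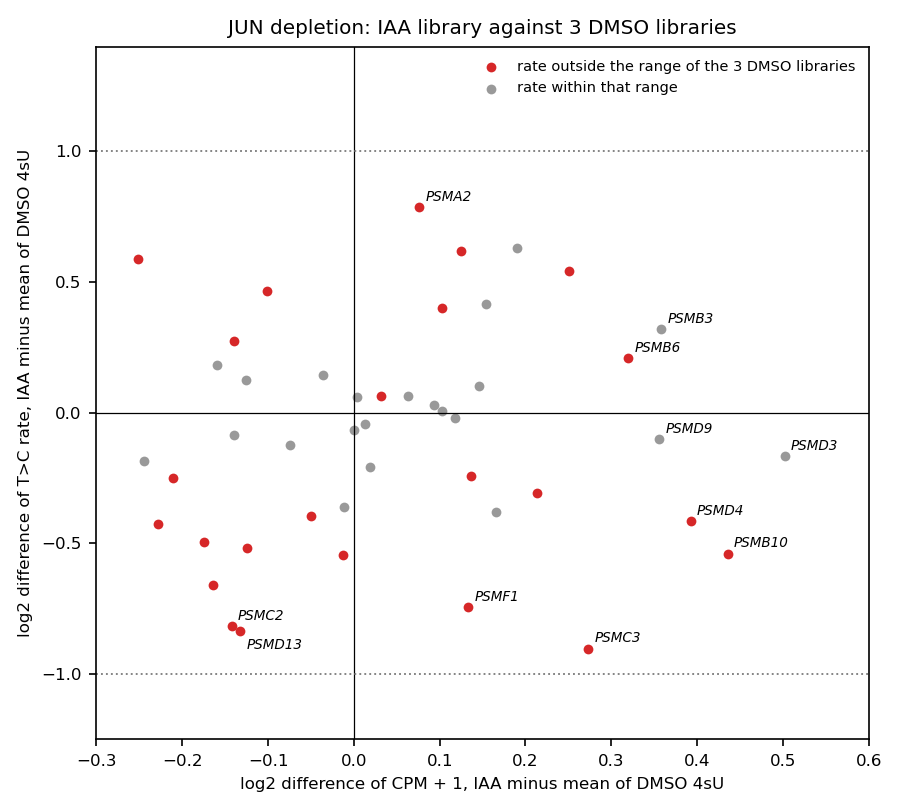
Differences between the IAA library and the mean of the 3 DMSO libraries with 4sU for 46 proteasome genes, in log2 CPM plus 1 (horizontal) and log2 centred T>C rate (vertical), with red points for a rate outside the DMSO range and dotted lines at 1 log2 unit. All points lie between the lines, and PSMC3 at -0.90 comes closest.

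Genes that work with the proteasome were taken from a list of 32 partners, of which 28 could be tested for the rate. Of these, 19 rose with 4sU (67.9%) and none fell, near the 66.3% of all genes, and their median net rate was 0.119%. MIDN, which carries substrates to the proteasome, had 0.113, 0.0693 and 0.0479% without 4sU, 3.16, 2.96 and 2.36% with DMSO and 4sU and 2.39% with IAA. MIDN lay above each of the 46 proteasome genes tested in every library with DMSO and 4sU.

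NFE2L1 itself had 0.0772, 0.0429 and 0.0895%, 0.154, 0.266 and 0.308% and 0.374% (log2 change 1.27 ± 0.31, limma, adjusted p 0.00918), and ADRM1, a ubiquitin receptor, had 0.0359, 0 and 0%, 0.185, 0.16 and 0.0717% and 0.174% (log2 change 1.60 ± 0.37, limma, adjusted p 0.00702). UBB, a polyubiquitin gene, rose by 1.04. SEM1, the small lid subunit, and POMP, which matures the core, had log2 changes of 0.46 and 0.54 and did not pass (limma, adjusted p 0.1 and 0.0947). In total mRNA none of 30 partners passed in limma. MIDN, ZFAND5 and HSPB1 were among those with the smallest p-values, with log2 changes of -0.48, -0.33 and 0.56 and adjusted p of 0.488, 0.517 and 0.538 in limma.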

How the data were processed

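QuantSeq libraries of MCF10A JUN-AID cells were sequenced after iodoacetamide treatment. Reads were processed by the authors with the nf-core SLAM-Seq workflow (build hg19 in the submitters' processing notes), and they deposited, per RefSeq 3′ interval and library, its length (another unit), the T>C rate as a fraction without background subtraction, and CPM, a read signal scaled to library size. The CPM were whole multiples of 1 read in 100% of non-zero values (tolerance 0.01 reads), which gave back the reads.

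RefSeq identifiers were matched to symbols (97.7% of rows), and rows with equal length and values were used once. Of the 56 genes, 21 had more than 1 distinct interval, and the interval with most reads was used. The plan had been to average the intervals. That was changed after the files were seen, because intervals of a few bases are listed at a rate of 0 and nested intervals count reads again. With averages, 32 genes rose in place of 31.

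The rate was tested with limma (3.58.1, R 4.3.3, trended and robust) on log2(rate + 0.0005) and total mRNA with limma on log2(CPM + 1) with TMM library sizes, both for 3 libraries against 3, with Benjamini-Hochberg adjustment over all genes at 0.05. On recovered reads, DESeq2 (1.42.0) and the quasi-likelihood test of edgeR (4.0.16) were alternatives. The fits were tested on simulated data, where the rate test missed a large part of the genes given a moderate change, so a gene that did not pass is not shown to be unlabelled. The IAA comparison kept genes with non-zero rates in 2 or more of 4 libraries and 200 reads or more on average. Replicate numbers were checked by the correlation of deviations from group means between same-numbered libraries. It was 0.396, 0.317 and 0.380 in total mRNA, so the numbers pair these libraries by the data. In the rates it was -0.017, -0.015 and 0.00021. The p-values given for total mRNA, and the counts at an unadjusted p, are from fits that did not use this pairing. Genes named with values were the catalytic beta subunits, the 5 highest and 5 lowest net rates, genes that passed a test in total mRNA or were called with IAA (none), genes that failed the filter, and 10 partners, of which 2 are not reported here. Any other gene given with values was chosen after its values were seen. Coordinates are GENCODE v44 lifted to GRCh37. The gene list, partners and markers were chosen with earlier results of these data known.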

Additional observations from a re-analysis of the deposited data

How the results depend on the processing

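Medians and counts below are for the genes tested, with the value reported above in brackets. A pseudocount of 0.0001 gave a median log2 change in rate of 1.23 and one of 0.002 gave 0.46 (0.87). Leaving out 1 library gave 20 to 29 proteasome genes with a higher rate (31), and 3607 to 4411 of all genes (4512). The lowest number of proteasome genes was without no 4sU replicate 1. In all 6 such fits 15 of the 31 passed, and the share of all genes that did so was not counted. At least 1000 reads left 1947 of all genes higher (4512), with fewer genes tested.

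In total mRNA, all genes lower numbered 61 at 10 CPM or more and 369 with DESeq2 (175), and 69 to 261 when 1 library was left out. All genes higher numbered 2 without a filter, 3 with DESeq2 and 0 to 1 without 1 library (0), and proteasome genes 0 throughout. With the replicate block, 26 of 46 proteasome genes (56.5%) and 4290 of 6805 genes (63%) had a higher rate. PSMB3, PSMC4, PSMD13, PSMD14 and PSMD9 lost the call, and the numbers did not pair the rates. In total mRNA the block gave 219 genes lower and changed no call of a proteasome gene.

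With IAA, genes of the 56 called in the rate (0) were 3 at a pseudocount of 0.0001, 2 without a minimum of reads (PSMC3IP and PSMD6-AS2, which match by name only), 2 (PSMA1 and PSMC3IP) with mean intervals, 1 (PSMC3IP) with weighted intervals and 0 to 2 without 1 DMSO library. All genes called in the rate (616 of 6820) were 903 at a pseudocount of 0.0001 and 132 at 0.002. They were 2334 of 11329 without a minimum of reads and 22 of 2341 at 1000 reads. With mean intervals they were 805 of 7164, with weighted intervals 709, and without 1 DMSO library 718 to 776. Proteasome genes with a rate above the DMSO range (9 of 46) were 4 of 34 at 1000 reads and 12 to 14 of 46 without 1 DMSO library. In total mRNA all genes called (16) were 56 at a pseudocount of 0.25, 27 with CPM as deposited, 9 at 10 CPM or more and 13 to 101 without 1 DMSO library. Proteasome genes above and below the DMSO range (9 and 9) were 16 and 4 with CPM as deposited, and 9 to 21 and 9 to 19 without 1 DMSO library. The share of all genes outside the DMSO range at these settings, in rate or total mRNA, was not counted. The median CPM of the proteasome genes was 80.4 with summed intervals (69.2). The cause of these shifts was not tested, and 1 IAA library gives no spread of its own.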
